A study of Mus musculus with 12 samples.

Results

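The genes that copy DNA and supply its nucleotides were followed through 12 salivary tumors of MMTV-ras mice that differed in p53 genotype. The members were 43 genes listed by name, and every probe set whose only annotated symbol was on the list was taken. A probe set is a group of short oligonucleotides on the array that reads 1 transcript. The rule found 75 probe sets of 41 genes, among 22626 probe sets tested and 12394 genes in all. Gins2 and Chaf1a had no probe set of their own, and a probe set shared by Tyms and a Tyms pseudogene was left out. Of the 41 genes, 18 were read by 1 probe set and 23 by several, and 39 were above the median of the array in at least 4 arrays at their brightest probe set. The other members, Orc1 and Tyms, were dim.

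MT tumors (MT1 to MT4) came from MMTV-ras/p53R172H/R172H mice, which carry the p53 missense allele R172H on both copies. p53-null tumors (null1 to null4) came from MMTV-ras/p53-/- mice, and wild-type p53 tumors (WT1 to WT4) from MMTV-ras/p53+/+ mice. All 3 genotypes carried a ras transgene driven by the MMTV promoter, which is active in salivary and mammary epithelium, and no tissue without the transgene is among the samples. The mice were adults, with no age given per tumor. The study reports earlier tumor onset in p53-null and MT mice than in WT mice, so that age and genotype cannot be told apart. The MT mice descended from a separate cross of p53R172H carriers into the ras colony, so that breeding history and genotype cannot be told apart. Total RNA of frozen tumor sections was hybridized to 1 Affymetrix mouse array per tumor, and the values are log2 expression levels, on which a difference of 1 is a 2-fold change. Levels of different probe sets cannot be compared with each other. The number of arrays limits the precision of every difference, and since no source states that each tumor is from its own mouse, the p-values reflect the variation among these 12 samples alone.

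Before a cell copies its DNA, the origin recognition complex (the Orc genes) marks the start sites, and Cdc6 and Cdt1 load the ring-shaped MCM helicase there while geminin (Gmnn) blocks loading a second time. Mcm10, Cdc45 and the GINS complex switch the helicase on, primase and polymerase alpha lay down primers, and polymerases delta and epsilon extend them on the sliding clamp PCNA, which replication factor C (Rfc) opens and closes. Most of these genes are transcribed ahead of S phase under E2F factors, so that their RNA is low in resting cells and high in cycling ones. Wild-type p53 can hold this program back through p21, the product of Cdkn1a, which blocks the kinases that release E2F.

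Trp53 itself was read by 2 probe sets. At the brighter one the level was 8.18 to 9.29 in MT tumors, 6.37 to 6.89 in p53-null tumors and 8.02 to 8.53 in WT tumors, and the p53-null tumors lay below the WT tumors by 1.66 ± 0.23 (SE; limma adjusted p = 0.00798). Cdkn1a fell by 1.45 in p53-null tumors (adjusted p = 0.0214, and 0.0545 to 0.0661 without null2, null3 or WT3), and its measured difference between MT and WT tumors was -1.47 (adjusted p = 0.0565). The arrays also differed in their control probe sets and marker lists, in part along with the genotypes. The poly-A controls, RNAs added at labeling, read 10.38 to 10.56 in MT1, MT2 and MT3 but 3.98 to 4.23 in MT4 and all p53-null and WT tumors, and these 3 arrays were taken as a labeling batch, which no source names. Marker lists also differed: the mean lymphocyte marker level was 7.89 in WT1 and 5.55 to 5.95 elsewhere, that of salivary acinar markers was 9.34 to 10.20 in MT tumors, 9.27 to 9.88 in p53-null tumors and 10.63 to 11.76 in WT tumors, and that of luminal epithelium, a part of the labeled salivary tissue, was 10.37 to 10.92 in MT tumors, 10.60 to 10.999 in p53-null tumors and 9.53, 10.71, 9.95 and 10.62 in WT1 to WT4. In bulk RNA, fewer cells of a type and less RNA per cell cannot be told apart.

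Few replication genes differed between the genotypes beyond the spread among tumors. Between p53-null and WT tumors 1 of the 75 member probe sets passed the limma test at an adjusted p of 0.05, and it was that of Orc5, a subunit of the origin recognition complex, which rose by 0.54 in p53-null tumors. This was 1.33% of the member probe sets, against 4.57% of all probe sets tested (1.94% higher and 2.64% lower). At an unadjusted p of 0.05, 4 member probe sets were higher and 4 lower in p53-null tumors (5.33% each), against 10.5% and 13.5% of all probe sets. In 4 member probe sets all p53-null tumors lay above all WT tumors and in 3 all lay below (5.33% and 4%), against 6.1% and 8.37% of all. The share of members was below that of all probe sets by each of these counts, in part by little (5.33% against 6.1%). Such counts also depend on the spread within genotypes. The median standard deviation within genotypes was 0.41 for the members and 0.27 over all genes, and its part in the counts was not tested.

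Between MT and WT tumors none of the 75 member probe sets passed the limma test, where 0.367% of all probe sets passed. At an unadjusted p of 0.05, 7 members were higher and 3 lower (9.33% and 4%), against 8.97% and 10.4% of all, and in 3 and 2 member probe sets the genotypes did not overlap, against 4.44% and 6.44% of all. Between MT and p53-null tumors none of the 75 passed either, against 0.00884% of all, which are the 2 probe sets of Trp53. That Trp53 difference, 2.27 at the brighter probe set, did not pass with the replicate number as a block (adjusted p = 0.0768), with the labeling batch as a block (1.51, adjusted p = 0.0674), with only the 8 tumors compared (0.168) or by the ordinary t statistic (0.374). At an unadjusted p of 0.05, 4 members were higher and 1 lower in MT tumors, against 5.01% and 4.57% of all, and in 2 and 0 member probe sets the genotypes did not overlap, against 2.88% and 1.97% of all. The limma F test over the 3 genotypes called 0 members of 75 (2.34% of all). SAM at a false discovery rate of 1% also called 0 members, and 275 of all 22626 probe sets. The ordinary t test called 0 members in each pair. Of all probe sets it called 10 between p53-null and WT tumors and 0 in either other pair, too few to set the members apart.

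Counted by gene at the probe set of highest mean, 26 of 41 members were measured higher in p53-null than in WT tumors, with a median difference of 0.12, against -0.01 over all genes. By probe set 37 of 75 were above 0 (49.3%), against 47.4% of all. The differences ran between -0.88 for Rpa2 and 0.86 for Pole. MT tumors were above WT tumors in 24 of 41 genes, with a median of 0.05 (all genes, -0.01) and a range of -0.43 to 0.70 (by probe set 56%, against 48.8% of all), and above p53-null tumors in 20 of 41, with a median of 0.00 (all genes, 0.02) and a range of -0.52 to 0.84 (by probe set 58.7%, against 53.4% of all). The 95% interval of the difference stayed within 2-fold in either direction for 28 genes between p53-null and WT tumors, for 29 between MT and WT tumors and for 30 between MT and p53-null tumors. For the other genes, which include Mcm7, Gmnn, Pola1, Rfc4, Chaf1b, Rrm2 and Dut in all 3 comparisons, a 2-fold difference lay inside the interval.

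**Figure D1:**
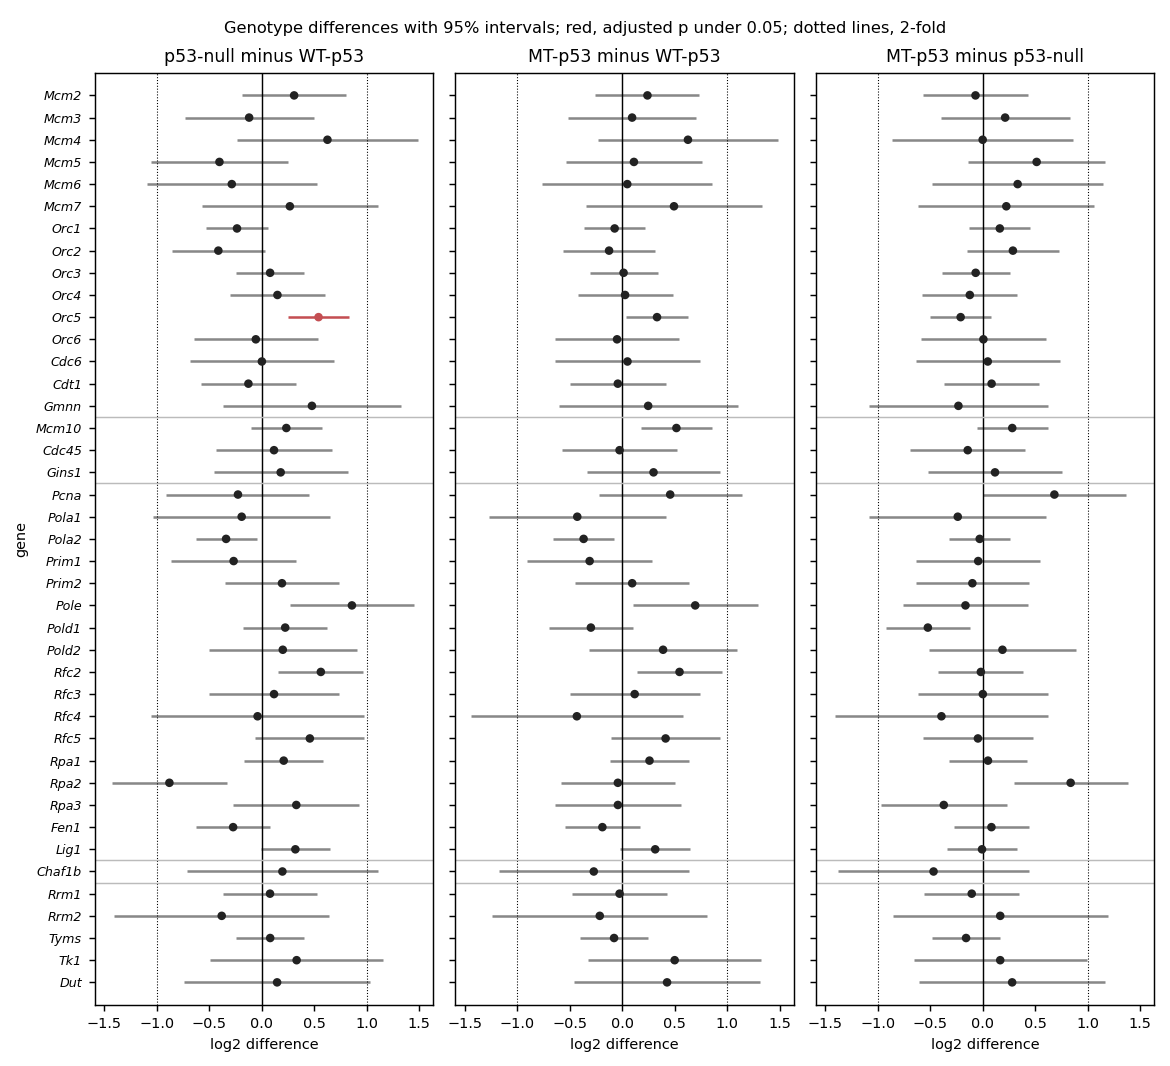
Differences between genotypes for the 41 genes at their probe set of highest mean, on the log2 scale, with 95% intervals (points, estimates of the limma fit; bars, intervals; dotted lines, a 2-fold difference in each direction). Orc5 in the left panel, with 0.54, is the single gene drawn in red for an adjusted p under 0.05.

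Many members were high or low in the same tumors within the MT and WT genotypes. For each gene the level in a tumor was set against its mean over the 12 tumors, and these deviations were averaged over the 41 genes. The mean deviation was 0.51 in MT1, -0.40 in MT2, 0.04 in MT3 and 0.03 in MT4. It was 0.06 in null1, 0.04 in null2, 0.14 in null3 and -0.18 in null4. In the WT tumors it was 0.22 in WT1, -0.47 in WT2, 0.22 in WT3 and -0.21 in WT4. The MT range thus held all p53-null tumors, and the genotypes overlapped, with means of 0.04 ± 0.37 in MT, 0.02 ± 0.14 in p53-null and -0.06 ± 0.34 in WT tumors (SD, n = 4 each). Of the 41 genes, 36 in MT1 but 4 in MT2 lay above their own median over the 12 tumors, 14 to 32 did in the p53-null tumors, and 33 in WT1 and 35 in WT3 but 3 in WT2 and 4 in WT4 did. Of all 12394 genes, 4710 (null1) to 7131 (null2) did in a tumor.

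MT1 held the highest of the 12 values for 19 of the 41 genes, WT2 the lowest for 15 and MT2 the lowest for 8. Over all 12394 genes the same counts were 800, 1465 and 1022. MT1 exceeded MT2 in 40 of 41 members, Orc3 being the exception, with a median gap of 0.81, whereas MT1 exceeded MT2 in 45.5% of all genes. WT1 likewise exceeded WT2 in 40 of 41, with a median gap of 0.74, against 47.0% of all genes. These pairs were picked for their gap, so no test was made. Among the p53-null tumors, null2 was the highest for 15 genes and the lowest for 10, and null4 the lowest for 21. Over all 12394 genes these counts were 4176, 2370 and 3650, so that the first is near the share over all genes. The median SD of a member was 0.44 over MT tumors, 0.28 over p53-null tumors and 0.35 over WT tumors. Among genes of like brightness, those above the array median in at least 4 arrays, it was 0.32, 0.33 and 0.26 over all genes against 0.44, 0.29 and 0.36 for the 39 bright members, in the same order of genotypes. MT1 and MT2 lay in the same group by poly-A controls (10.38 and 10.50), and WT1 and WT2 in the other (4.11 and 4.23). MT1 had the highest skeletal muscle marker level (6.48, against 5.50 to 5.99 in the others), and WT2 the lowest fibroblast marker level (6.91, against 7.37 to 8.91). The luminal epithelium marker level was lower in WT1 and WT3 (9.53 and 9.95), where the members were high, than in WT2 and WT4 (10.71 and 10.62). The MT tumors ran otherwise: MT1 had their highest luminal level (10.92) and MT2 their highest fibroblast level (8.36). Salivary acinar markers were higher in WT1 and WT3 (11.49 and 11.76) than in WT2 and WT4 (10.63 and 10.87). Among MT tumors they were highest in MT1 (10.20), but MT2 (9.57) lay above MT3 (9.34) and MT4 (9.45). Among p53-null tumors they were highest in null3 (9.88) and lowest in null2 (9.27), with 9.66 in null4. The macrophage marker level was highest in MT2 (9.02), WT4 (9.01) and WT2 (8.87), where the members were low, but was 8.35 in null4, where they were also low. The part of these controls and markers in the result was not tested.

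**Figure D2:**
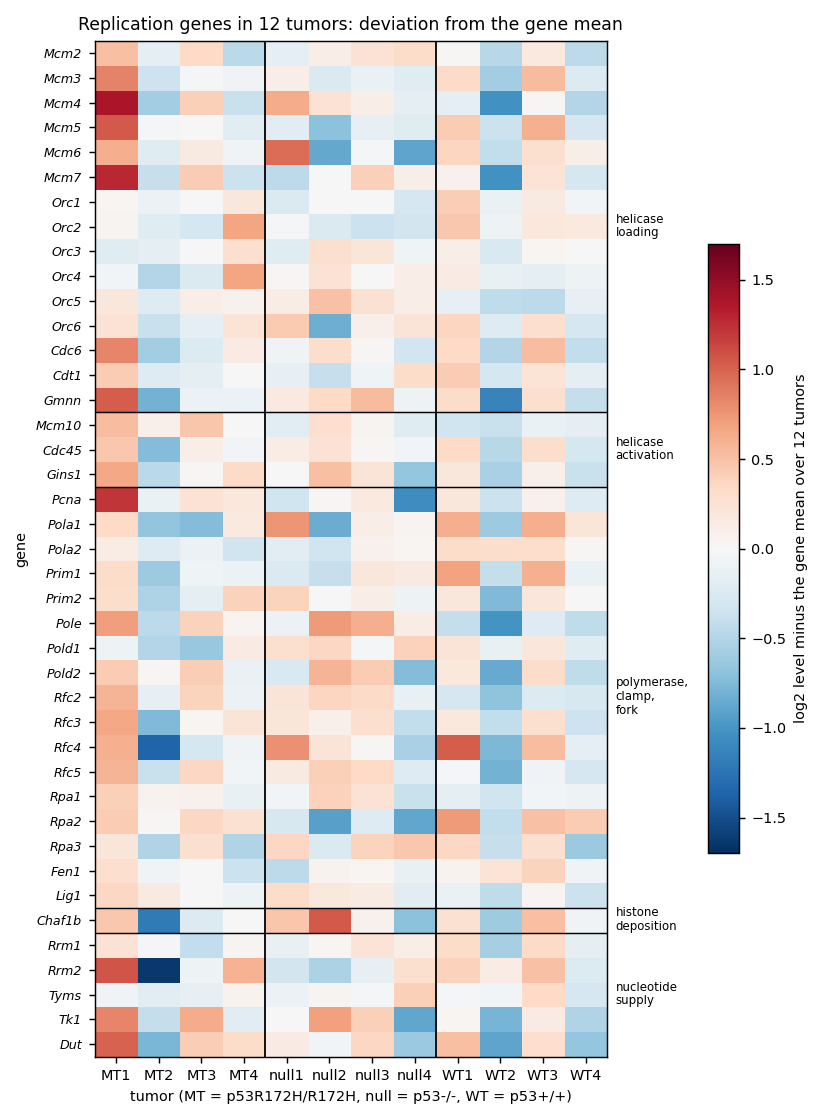
Each cell is the log2 level of 1 gene (rows, grouped by role) in 1 tumor (columns, MT, p53-null and WT tumors between the vertical lines) minus the mean of that gene over the 12 tumors. The columns of MT1 (mean deviation 0.51) and WT2 (-0.47) are nearly uniform in sign across the roles, and MT1 is the highest tumor in 5 of the 6 MCM rows and in none of the 6 Orc rows.

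The MCM genes encode the 6 subunits of the replicative helicase. Mcm4 had levels of 10.33, 8.34, 9.35 and 8.56 in MT1 to MT4, of 9.57, 9.18, 9.05 and 8.77 in null1 to null4 and of 8.78, 7.90, 8.95 and 8.43 in WT1 to WT4. All 3 genotypes overlapped, and the difference was 0.63 ± 0.39 (SE) both for p53-null against WT tumors (adjusted p = 0.359) and for MT against WT tumors (adjusted p = 0.402). With the labeling batch as a block, where the MT mean rests on MT4, the MT difference was 0.04. The other Mcm4 probe set gave 0.77 for p53-null tumors and 0.05 for MT tumors against WT.

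Mcm7 had levels of 11.87, 10.20, 11.02 and 10.22 in the MT tumors, 10.14, 10.60, 10.996 and 10.69 in the p53-null tumors and 10.66, 9.57, 10.83 and 10.29 in the WT tumors. Here too a single MT tumor, MT1, stood above the rest, and the mean differences against WT were 0.27 in p53-null tumors and 0.49 in MT tumors, the second of which was -0.11 with the batch block. Mcm5 read 9.05 in MT1 but 7.83 to 7.995 in the other MT tumors, 7.31 to 7.86 in p53-null tumors and 7.64 to 8.61 in WT tumors. Mcm6 differed most within the p53-null genotype, with 10.29 in null1 but 8.48 in null2 and 8.46 in null4, against 8.93 to 9.71 in WT tumors. At the probe sets of highest mean, MT1 was the highest of 12 tumors for 5 of the 6 subunits, all but Mcm6. WT2 was the lowest there for 4, Mcm2, Mcm3, Mcm4 and Mcm7. The further probe sets of Mcm2 and Mcm7 were also highest in MT1, but others were not. The second of Mcm4 was highest in null1 (10.16, against 9.73 in MT1) and lowest in MT2 (7.37). A further one of Mcm3 was highest in WT3 (8.57) and lowest in null4 (7.63). The gap between MT1 and MT2 was 0.66 for Mcm2, 1.20 for Mcm3, 1.98 for Mcm4, 1.07 for Mcm5, 0.81 for Mcm6 and 1.67 for Mcm7. Mcm2 and Mcm3 differed from WT by 0.31 and -0.12 in p53-null tumors and by 0.24 and 0.09 in MT tumors, all within the spread among tumors. With the batch block the MT differences were -0.28 for Mcm2, -0.06 for Mcm3 and -0.27 for Mcm5, which was 0.11 without it.

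The promoters of 4 MCM genes are printed because they carry E2F words, which the window of Mcm2 does not, and that of Orc5 because this gene passed the test and carries none. The windows run from 250 bases before to 50 bases after the transcript start (RefSeq, GRCm38.p6), read 5′ to 3′ on the strand of the gene. Capitals mark the words searched for, TTTCCCGC, TTTCGCGC, TTTGCCGC and TTTGGCGC, on either strand, with overlapping words written as 1 run of capitals.
Mcm3 (chr1:20820263-20820562, minus strand): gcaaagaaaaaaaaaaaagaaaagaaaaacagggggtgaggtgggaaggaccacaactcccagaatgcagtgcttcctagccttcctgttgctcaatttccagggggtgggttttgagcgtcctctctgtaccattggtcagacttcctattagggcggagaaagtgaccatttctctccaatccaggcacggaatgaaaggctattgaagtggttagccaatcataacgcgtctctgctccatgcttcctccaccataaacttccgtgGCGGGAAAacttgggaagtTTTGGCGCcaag
Mcm5 (chr8:75109259-75109558, plus strand): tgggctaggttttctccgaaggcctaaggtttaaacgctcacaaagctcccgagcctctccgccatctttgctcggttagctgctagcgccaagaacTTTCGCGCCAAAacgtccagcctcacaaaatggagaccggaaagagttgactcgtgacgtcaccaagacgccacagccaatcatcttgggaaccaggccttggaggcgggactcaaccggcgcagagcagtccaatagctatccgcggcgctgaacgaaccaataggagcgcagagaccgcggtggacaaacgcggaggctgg
Mcm6 (chr1:128359656-128359955, minus strand): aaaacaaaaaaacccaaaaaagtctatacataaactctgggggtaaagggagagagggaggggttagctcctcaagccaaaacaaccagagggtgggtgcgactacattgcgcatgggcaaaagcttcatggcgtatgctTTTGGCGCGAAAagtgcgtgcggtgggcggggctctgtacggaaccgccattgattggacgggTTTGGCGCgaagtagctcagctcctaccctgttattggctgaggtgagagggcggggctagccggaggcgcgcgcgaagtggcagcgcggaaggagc
Mcm7 (chr5:138171834-138172133, minus strand): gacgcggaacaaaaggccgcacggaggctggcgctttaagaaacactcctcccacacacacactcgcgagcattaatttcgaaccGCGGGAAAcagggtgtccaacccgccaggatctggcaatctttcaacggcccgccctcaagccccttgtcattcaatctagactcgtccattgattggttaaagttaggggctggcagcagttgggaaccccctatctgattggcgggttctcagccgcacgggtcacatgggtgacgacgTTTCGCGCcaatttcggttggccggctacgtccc
Orc5 (chr5:22550289-22550588, minus strand): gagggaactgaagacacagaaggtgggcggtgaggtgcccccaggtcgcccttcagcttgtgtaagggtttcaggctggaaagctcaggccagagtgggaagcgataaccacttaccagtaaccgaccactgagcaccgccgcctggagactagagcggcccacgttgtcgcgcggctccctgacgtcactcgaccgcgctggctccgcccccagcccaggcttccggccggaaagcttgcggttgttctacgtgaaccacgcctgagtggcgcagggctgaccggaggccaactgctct
Mcm3, Mcm5 and Mcm7 hold 2 words each and Mcm6 holds 3, and in Mcm5 and Mcm6 a pair of words overlaps on opposite strands. Of the 43 listed genes 36 had a window, 44 windows in all, and 12 of these (27.3%) held at least 1 word, against 2.26% of all 32851 promoter windows. The other genes with a word were Orc1, Orc3, Cdc6, Cdt1, Pola1, Pold1, Rfc3 and Lig1. CCAAT, on either strand, was in 24 of the 44 windows (54.5%), against 37.4% of all. A match describes letters only, and factor binding was not measured.

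The origin recognition complex, which marks the sites where the helicase is loaded, had its lowest mean deviations in MT2 (-0.26) and WT2 (-0.21), as the members did over all, but MT1 (0.04) was below MT4 (0.35). Orc5 had levels of 7.97, 7.55, 7.89 and 7.85 in the MT tumors, 7.90, 8.27, 8.03 and 7.89 in the p53-null tumors and 7.63, 7.34, 7.32 and 7.64 in the WT tumors. Every p53-null tumor lay above every WT tumor, while MT2 lay within the WT range. Orc5 thus rose by 0.54 ± 0.13 in p53-null tumors (SE; 1.46-fold; limma adjusted p = 0.0439), and its difference between MT and WT tumors was 0.33 ± 0.13 (adjusted p = 0.212). The call was close to the threshold: it was lost with the labeling batch as a block (adjusted p = 0.0518), with dim probe sets left out (0.0743), with only the 8 tumors compared (0.0794), with a mean-variance trend (0.0721), by the ordinary t statistic (0.127) and on leaving out any 1 tumor other than MT2 and WT4, when the difference was 0.46 to 0.59 and the adjusted p 0.0518 to 0.117.

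The other subunits did not pass in any comparison. Orc2 had a difference of -0.41 between p53-null and WT tumors (limma adjusted p = 0.240) and of -0.12 between MT and WT tumors (0.50 with the batch block). Orc1, Orc3, Orc4 and Orc6 differed from WT by -0.23 to 0.15 over both altered genotypes. With the batch block, where the MT mean rests on MT4, their MT differences from WT were 0.09, 0.32, 0.73 and 0.19. Orc2, Orc3 and Orc4 were highest in MT4, with 8.13, 8.05 and 9.12 against 7.15 to 7.49, 7.55 to 7.77 and 7.94 to 8.40 in the other MT tumors, and MT1 was the highest tumor for none of the 6 subunits. The gap between MT1 and MT2 was -0.05 for Orc3 and 0.63 for Orc6, the range over the complex. The loading factors Cdc6 and Cdt1 had differences of -0.13 to 0.08 in the 3 comparisons at their probe sets of highest mean. Cdc6 was 7.69 in MT1 and 6.27 in MT2, 6.54 to 7.17 in p53-null tumors and 6.36 to 7.39 in WT tumors. Cdt1 was 8.66 to 9.31, 8.49 to 9.19 and 8.58 to 9.31 in MT, p53-null and WT tumors. The second Cdt1 probe set gave -0.48 for p53-null against WT tumors (limma adjusted p = 0.233) and 0.10 for MT against WT tumors. For MT against p53-null tumors it gave 0.57 (limma adjusted p = 0.455). At a dim further probe set all p53-null tumors lay below all WT tumors, by 0.20 on average (limma adjusted p = 0.211). Geminin followed the helicase, with 9.16 in MT1, 7.33 in MT2 and 8.03 in MT3 and MT4, with 8.04 to 8.67 in p53-null tumors and with 6.997 in WT2 against 7.73 to 8.44 in the other WT tumors.

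Of the factors that switch the helicase on, Mcm10, Cdc45 and Gins1 were measured, and all 3 were highest in MT1. Mcm10, which joins the loaded helicase, had levels of 7.88, 7.45, 7.83 and 7.35 in MT tumors, 7.18, 7.65, 7.41 and 7.16 in p53-null tumors and 7.03, 6.98, 7.25 and 7.20 in WT tumors. All MT tumors lay above all WT tumors. The difference, 0.52 ± 0.15 (SE), had a limma adjusted p of 0.125 and was 0.24 with the batch block, and that of p53-null against WT tumors was 0.24 ± 0.15. The dim second probe set of Mcm10 gave -0.01 and -0.05. Cdc45, a helicase subunit, and Gins1 differed from WT by 0.12 and 0.18 in p53-null tumors and by -0.02 and 0.30 in MT tumors.

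Among the polymerases that extend the leading and lagging strands, the measured differences from WT were above 0 except at 1 probe set of Pold1. Pole, the catalytic subunit of polymerase epsilon, had levels of 8.05, 6.89, 7.72 and 7.38 in MT tumors, 7.23, 8.05, 7.96 and 7.46 in p53-null tumors and 6.92, 6.31, 7.12 and 6.91 in WT tumors. All p53-null tumors were above all WT tumors, and MT2 was below WT1. The differences from WT were 0.86 ± 0.27 for p53-null tumors (SE; limma adjusted p = 0.0885) and 0.70 ± 0.27 for MT tumors (adjusted p = 0.203), and neither passed.

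Pold1, the catalytic subunit of polymerase delta, was read by 2 probe sets that disagreed. At the one of highest mean the levels were 7.998, 7.60, 7.44 and 8.22 in MT tumors, 8.36, 8.44, 8.07 and 8.48 in p53-null tumors and 8.31, 7.97, 8.28 and 7.89 in WT tumors, with differences from WT of 0.22 in p53-null tumors and -0.30 in MT tumors. At the other they were 7.95, 7.89, 7.68 and 7.31 in MT tumors, 7.53, 7.99, 7.48 and 7.82 in p53-null tumors and 7.23, 6.77, 7.30 and 6.86 in WT tumors. There both altered genotypes lay above all WT tumors by 0.67 ± 0.18 on average (SE; adjusted p = 0.0600 for p53-null and 0.104 for MT tumors). This second probe set passed between p53-null and WT tumors with the batch as a block (adjusted p = 0.0438). With that block the differences between MT and WT tumors were 0.27 at the second probe set (adjusted p = 0.803) and 0.11 at the one of highest mean (0.934). Both are annotated to Pold1 alone, and which transcripts each reads was not examined. Pold2, the accessory subunit, had differences from WT of 0.20 in p53-null tumors and 0.39 in MT tumors.

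Of the genes of the primer-making enzymes, Pola1, Pola2 and Prim1 were measured below WT in both altered genotypes and Prim2 above it. Pola2, the regulatory subunit of polymerase alpha, had levels of 7.61, 7.27, 7.39 and 7.16 in MT tumors, 7.31, 7.16, 7.56 and 7.52 in p53-null tumors and 7.81, 7.79, 7.79 and 7.51 in WT tumors. Its 2 probe sets both gave -0.34 for p53-null tumors (adjusted p = 0.150 and 0.0815) and -0.37 for MT tumors (adjusted p = 0.176 and 0.113). Neither passed. The catalytic subunit Pola1 had differences of -0.19 in p53-null and -0.43 in MT tumors, with a spread over 12 tumors of 1.60. The primase subunits Prim1 and Prim2 had differences from WT of -0.27 and 0.19 in p53-null tumors and of -0.31 and 0.10 in MT tumors.

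Pcna, the sliding clamp and in human cells also a p53 target, had levels of 12.51, 11.19, 11.54 and 11.47 in MT tumors, 10.95, 11.31, 11.47 and 10.24 in p53-null tumors and 11.49, 10.94, 11.37 and 11.07 in WT tumors. MT1 was the highest and null4 the lowest of the 12. The difference between MT and p53-null tumors was 0.68 ± 0.31 (SE; limma adjusted p = 0.520), and those from WT were 0.46 in MT tumors and -0.23 in p53-null tumors. null4 had the largest gap between 3′ and 5′ actin control probe sets, 1.05 against 0.17 to 0.58 in the other tumors, whose part in its low Pcna level was not tested.

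Rfc2, a subunit of the clamp loader, had levels of 9.33, 8.61, 9.12 and 8.65 in MT tumors, 8.97, 9.11, 9.08 and 8.62 in p53-null tumors and 8.46, 8.07, 8.52 and 8.48 in WT tumors. Every MT and every p53-null tumor lay above every WT tumor. The differences from WT were 0.56 ± 0.19 for p53-null tumors (SE; adjusted p = 0.0981) and 0.55 ± 0.19 for MT tumors (adjusted p = 0.158; 0.27 with the batch block), so that neither passed. The other loader subunits showed no such separation: Rfc3 and Rfc4 differed from WT by 0.12 and -0.04 in p53-null tumors and by 0.12 and -0.43 in MT tumors, and Rfc5 by 0.46 and 0.41. Rfc4 spanned 2.39 over the 12 tumors, between 8.94 in WT1 and 6.56 in MT2.

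Replication protein A, the complex of Rpa1, Rpa2 and Rpa3 that covers single-stranded DNA, did not move as a unit. Rpa2 had levels of 8.04, 7.63, 7.95 and 7.87 in MT tumors, 7.34, 6.69, 7.39 and 6.73 in p53-null tumors and 8.33, 7.19, 8.11 and 8.03 in WT tumors. The p53-null tumors lay below all MT tumors and below all WT tumors but WT2. The difference was -0.88 ± 0.25 for p53-null against WT tumors (SE; limma adjusted p = 0.0667) and 0.84 ± 0.25 for MT against p53-null tumors (adjusted p = 0.318). Without WT2 the difference between p53-null and WT tumors was -1.12 and passed (adjusted p = 0.0187). The second Rpa2 probe set gave -0.15 for p53-null against WT tumors and 0.29 for MT against p53-null tumors. Rpa1 and Rpa3 had differences from WT of 0.21 and 0.33 in p53-null tumors and of 0.26 and -0.04 in MT tumors.

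**Figure D3:**
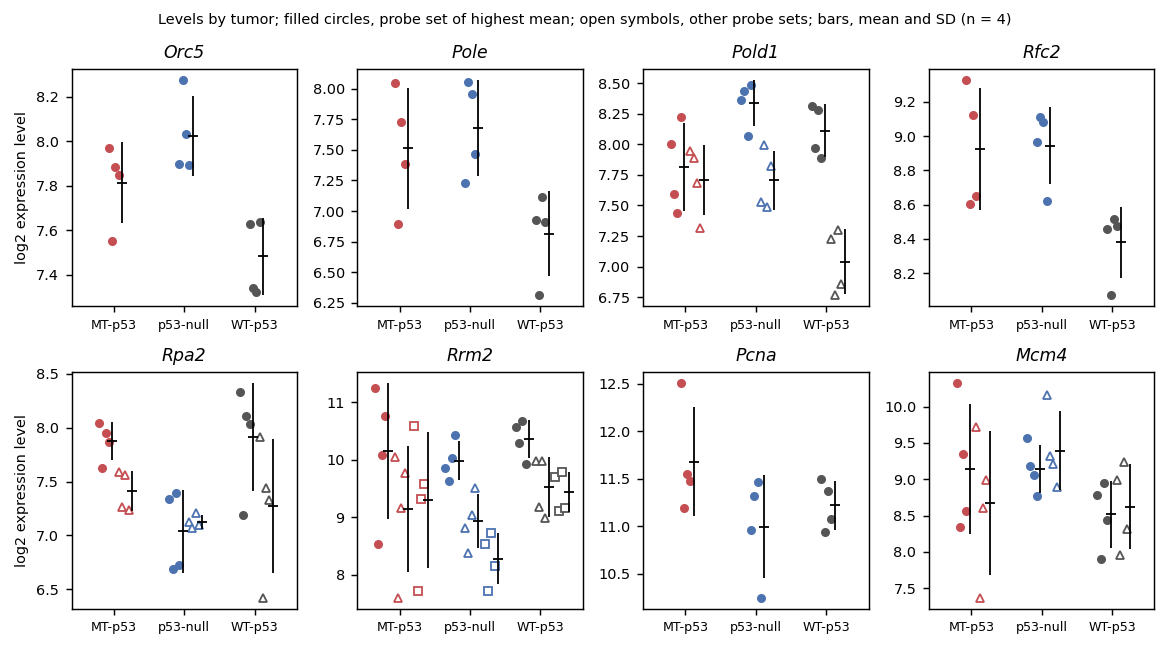
Log2 levels of 8 genes in each tumor by genotype (filled circles, probe set of highest mean; open symbols, further probe sets of the gene; black bars, mean and SD over 4 tumors), where levels of different probe sets are not comparable. All p53-null tumors lie above all WT tumors for Orc5, Pole, Rfc2 and the open triangles of Pold1. MT1 is the highest tumor for Pcna and for the filled circles of Mcm4, but not for the open triangles of Mcm4.

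The genes that finish the lagging strand, Fen1 (the flap endonuclease) and Lig1 (DNA ligase), had differences from WT of -0.27 and 0.32 in p53-null tumors and of -0.19 and 0.31 in MT tumors, none of which passed. Chaf1b, a subunit of the factor that places histones on new DNA, ranged widely in both altered genotypes, with 8.12, 6.45, 7.42 and 7.66 in MT tumors and 8.13, 8.70, 7.73 and 6.97 in p53-null tumors, against 7.92, 7.05, 8.17 and 7.60 in WT tumors. Its differences from WT, -0.27 in MT and 0.20 in p53-null tumors, lay within that spread.

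Among the genes of nucleotide supply, Rrm2, the subunit of ribonucleotide reductase that is made for S phase, varied most. At its probe set of highest mean it had 11.24, 8.53, 10.08 and 10.75 in MT tumors, 9.85, 9.63, 10.02 and 10.44 in p53-null tumors and 10.56, 10.30, 10.66 and 9.93 in WT tumors. MT1 and MT2 were the highest and the lowest of the 12, 6.57-fold apart. The differences from WT were -0.38 ± 0.47 in p53-null tumors and -0.21 ± 0.47 in MT tumors (SE; 0.39 with the batch block). Its other probe sets gave -0.59 and -1.16 for p53-null tumors and -0.38 and -0.14 for MT tumors (0.25 and 0.14 with the batch block). At the last of these the MT tumors had 10.58, 7.72, 9.31 and 9.57. There the p53-null tumors, with 8.53, 7.71, 8.72 and 8.15, lay below all WT tumors, with 9.69, 9.11, 9.78 and 9.16 (limma adjusted p = 0.172).

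Rrm1, the other reductase subunit, was steadier, with 8.80 to 9.46 in MT tumors, 9.09 to 9.44 in p53-null tumors and 8.65 to 9.54 in WT tumors. Tk1, the thymidine kinase of the salvage route, and Dut, which removes dUTP, were highest in MT1 at 8.80 and 9.42, against 7.55 and 7.64 in MT2, and their differences from WT were 0.33 and 0.15 in p53-null tumors and 0.50 and 0.43 in MT tumors. Tyms, which makes thymidylate, lay at 4.52 to 5.20 in all tumors, below the array median, so that its difference of 0.08 in p53-null tumors and -0.08 in MT tumors bears on a dim probe set. Where a gene had several probe sets, they gave differences of both signs in 9 of 23 genes between p53-null and WT tumors, in 12 between MT and WT tumors and in 11 between MT and p53-null tumors.

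Neighboring lists were read the same way. Of 32 other replication genes measured, 0 passed in any comparison (median difference 0.14 in p53-null and 0.13 in MT tumors against WT, and -0.03 in MT against p53-null tumors). Of 29 other nucleotide synthesis genes, Prps1, which makes the sugar phosphate for purines and pyrimidines, fell by 1.26 in p53-null tumors (adjusted p = 0.0170), and the median differences were -0.17 in p53-null and -0.07 in MT tumors. Prps1 levels were 7.36, 7.26, 7.31 and 7.41 in MT tumors, 7.73, 6.76, 7.26 and 7.002 in p53-null tumors and 8.67, 7.91, 8.44 and 8.80 in WT tumors, without overlap between WT and either altered genotype, and the MT difference was -1.12 (adjusted p = 0.0575). The p53-null call was lost without WT3 (adjusted p = 0.0506), with only the 8 tumors compared (0.0514) and by the ordinary t statistic (0.126).

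Of 29 mitosis and proliferation markers 26 were measured higher in p53-null than in WT tumors, with a median of 0.36, against 26 of 41 and 0.12 for the replication genes. Cenpe, a kinetochore motor, rose by 1.24 in p53-null tumors (adjusted p = 0.0196) and was the single one that passed, a call that was lost without null3 (adjusted p = 0.0511), without WT3 (0.0543), with only the 8 tumors compared (0.0564) and by the ordinary t statistic (0.131). Between MT and p53-null tumors the median was -0.34 and 2 of 29 were above 0, against 0.00 and 20 of 41 for the replication genes, and no marker passed. Top2a and Mki67, 2 widely used markers of cycling cells, differed from WT by 0.87 and 0.08 in p53-null tumors (adjusted p = 0.113 and 0.894) and by 0.32 and -0.64 in MT tumors (adjusted p = 0.591 and 0.253). By tumor, the mean deviation of the mitosis markers was 0.21, -0.55, -0.05 and -0.05 in MT1 to MT4, 0.18, 0.28, 0.48 and 0.08 in null1 to null4 and 0.24, -0.47, 0.03 and -0.37 in WT1 to WT4. MT2 and WT2 were the lowest for both kinds of genes, whereas MT1, the highest for replication, was exceeded by null2, null3 and WT1 for mitosis.

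**Figure D4:**
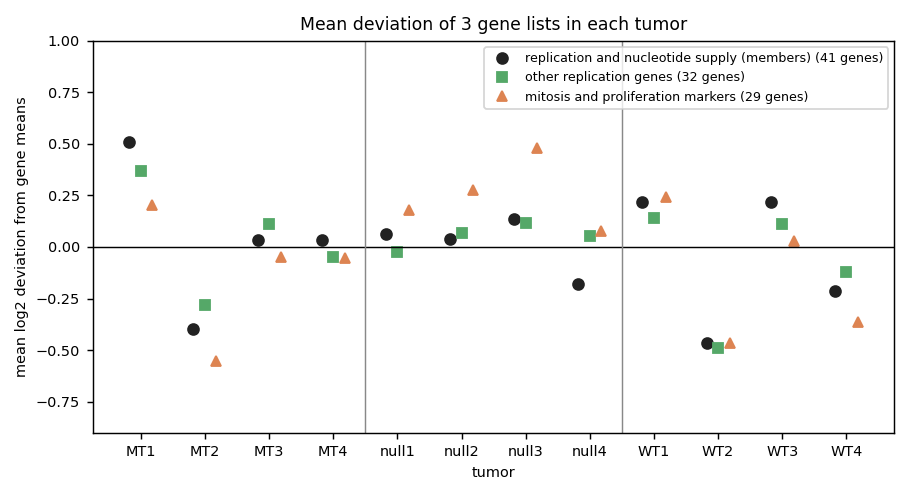
Mean log2 deviation from the gene means in each tumor (MT, p53-null and WT from left to right) for the 41 replication and nucleotide supply genes (circles), 32 other replication genes (squares) and 29 mitosis and proliferation markers (triangles). The circles reach 0.51 in MT1 and -0.47 in WT2, and the triangles are above the circles in each p53-null tumor.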

How the data were processed

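Frozen sections of 12 salivary tumors, 4 per genotype, were profiled on 1 Affymetrix array each. The deposited values are log2 expression levels per probe set, which by the study's methods the authors obtained with RMA (background correction, quantile normalization and summarizing of probes). MAS5 also stands in the submitters' processing notes, with no version for either. Nothing was added before the tests. Of 22690 probe sets, 64 controls were left out. Of the rest, 20382 carry a single gene symbol (2 of them, for Trp53, named by the study's own gene list), 691 several and 1553 none in the tables used.

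For every probe set, 1 mean per genotype was estimated from the 12 arrays by limma (version 3.58.1, R version 4.3.3; lmFit, then eBayes), and each pair of genotypes was compared in a 2-sided test. Adjusted p-values are Benjamini-Hochberg values across the 22626 probe sets, and 0.05 was the threshold. Intervals are at 95%. Means over genes used 1 probe set per gene, that of highest mean. Every member gene is named. Of the other lists (other replication, other nucleotide synthesis, and mitosis and proliferation genes) up to 4 called genes are named, besides Mki67, Top2a, Trp53 and Cdkn1a. The members and lists were chosen with earlier results of these data known, and counting groups without overlap was decided on after seeing values. Promoters were matched by symbol to RefSeq (GRCm38.p6). The settings varied were the treatment of dim probe sets (kept, or required above the array median in at least 4 arrays), array centering, cyclic loess, the tumors in the fit (12, or the 8 of a pair), the variance model (trend with robust moderation, array weights, ordinary t), blocks for replicate number and labeling batch, the hybridization controls as a covariate, thresholds of 0.1 and 0.01, 1 probe set per gene, SAM with 100 permutations, and each tumor left out. The steps were tested on simulated data. Figures used Python 3.11.15 and matplotlib 3.10.9. The authors' own expression comparisons were not used.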

Additional observations from a re-analysis of the deposited data

Results flagged for a closer look

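In each genotype of 4 tumors, a gene was singled out when its highest or lowest tumor lay far from the rest, that is when the gap to the nearest tumor passed Dixon's 95% value for the share of the whole range. Of 126 groups of 4 tumors examined (each member and the mean deviation over the members, in each genotype), 5 were singled out. Chance alone gives about 1 in 20, or 6.3. In MT tumors Mcm5 was high in MT1, at 9.05 against 7.83 to 7.995 in the others (0.865 of the range). In p53-null tumors Mcm5 was low in null2, at 7.31 against 7.80 to 7.86 (0.889), and Rpa3 was low in the same tumor, at 8.73 against 9.33 to 9.43 (0.851). In WT tumors Pola2 was low in WT4, at 7.51 against 7.79 to 7.81 (0.947), and Rfc2 was low in WT2, at 8.07 against 8.46 to 8.52 (0.874).

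Outside the comparisons, the poly-A control probe sets averaged at least 10.38 in MT1, MT2 and MT3, against 3.98 to 4.23 in the other 9 tumors. Because MT1 to MT3 are all of 1 genotype, this batch and the MT genotype cannot be told apart except through MT4.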

How the results depend on the processing

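No difference named in the text that passed the test changed sign under another setting, but some that did not pass did. With the labeling batch as a block the sign of MT minus WT turned for 12 of 41 genes (among them Mcm7, Pold1 and Rrm2) and that of MT minus p53-null for 9. Between p53-null and WT tumors, where 1 member probe set passed, 0 passed with dim probe sets left out, with only the 8 tumors compared, with a mean-variance trend and robust moderation, with the ordinary t statistic, and at a threshold of 0.01. Over all probe sets tested, these settings called 603, 374, 1047, 10 and 61 in that order, against 1035 in the main fit. Centering each array gave 2 (Orc5 and Rpa2), with 1242 over all probe sets. With array weights 6 passed, with 3280 over all, and at a threshold of 0.1 also 6, with 2541 over all. Leaving out 1 tumor gave 0 to 1, with 196 to 1360 over all probe sets. Between MT and WT tumors 12 passed with array weights, where 4973 of all probe sets passed. With 1 tumor left out 0 to 1 passed (Pold1 without MT4), with 4 to 801 over all probe sets. Between MT and p53-null tumors 0 passed under every setting run. Few of all 22626 probe sets passed there either: 2 in the main fit, 44 with array weights and, at most, 235 without MT4. Over the 3 genotypes 2 passed at a threshold of 0.1, and 0 to 1 with 1 tumor left out (1 without MT4 and 1 without WT2). All probe sets were not counted at these settings of the 3-genotype test, so that these counts cannot set the members apart. In its main fit 529 of all passed.

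The median difference over the members lay between -0.02 and 0.23 for p53-null against WT tumors, between -0.09 and 0.25 for MT against WT tumors and between -0.12 and 0.12 for MT against p53-null tumors, so that its sign was not stable in any of them. Same-numbered tumors of different genotypes correlated above 0.1 in 6 of 12 pairs (0.0023 to 0.335). Correlations between differently numbered tumors were not computed, so these values cannot show whether the number pairs tumors. No source names a pairing, and the main fit used none. With the replicate number as a block, 1 member passed between p53-null and WT tumors (Rpa2, not Orc5), with 1019 over all probe sets. With that block 1 member also passed over the 3 genotypes, where all probe sets were not counted. At 4 arrays per genotype the 95% interval of a difference was 0.58 to 2.05 wide, widest for Rrm2.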
